A study of Drosophila melanogaster with 21 samples.

Results

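Odorant-binding proteins are small secreted carriers that hold hydrophobic molecules in solution. Their best known place is the fluid around the dendrites of olfactory and taste neurons, where support cells secrete them and where they bring odorants to, or keep them from, the receptors. In flies, members of the family are also made outside the sensilla, in glia, in fat body and in the male reproductive tract, where their ligands are less well known. The members described here were the genes of the count table whose symbol is Obp followed by a number, 51 of 17612 genes, and the symbols of all 51 equalled those of the Ensembl annotation for the same identifiers. The rule works on names, so lush, an odorant-binding protein with another kind of symbol, was not a member.

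PolyA RNA was sequenced from the brains of male flies, with 20 brains in each replicate and 3 replicates in each group. Set 1 compared control and miR-34 mutant brains at 3d and at 20d (12 libraries), and set 2 followed control brains at 3d, 20d and 50d (9 libraries). Controls were w1118 flies, a white-eyed laboratory strain whose mutation the mutants share, and the mutants lacked the microRNA miR-34, with no driver or tissue limit named for the loss. Flies were raised on molasses food. Total counts ran from 17932132 to 23109013 per library in set 1 and from 30890607 to 43713430 in set 2. The microRNA itself had no row in the table, and lncRNA:CR43459, the transcript that holds it, had 182 to 435 counts in the libraries labelled control in set 1 and 15243 to 23664 in those labelled mutant, so it parted all 12 libraries by label without showing the loss. The 6 neuronal markers summed to between 4360 and 8230 CPM (counts relative to library size, scaled with TMM factors) and the 8 glial markers to between 2985 and 6028 CPM over all libraries. The 8 markers of the retina summed to between 15830 and 52910 CPM, and the 6 of muscle, the 4 of hemocytes and the 5 of taste organs to at most 160.6, 299.7 and 4.13 CPM.

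Some libraries carried transcripts known from the antenna, and several members went with them. In 6 of the 21 libraries a5 and Jhedup, a pair of antennal genes, together exceeded 0.5 CPM, a limit chosen after the values were seen. These were replicate 3 of the 3d controls and replicates 2 and 3 of the 3d mutants in set 1, and replicate 1 at 3d, replicate 3 at 20d and replicate 3 at 50d in set 2. The summed level of Os-C, lush, a5 and Jhedup was 11.3, 6.67, 8.45, 18.9, 34.6 and 58.3 CPM in these libraries and at most 4.29 CPM in the other libraries. Since a5 and Jhedup set the limit, their part of this sum is no separate evidence. By itself lush was at 1.51 to 8.65 CPM in these libraries and at most 0.843 CPM in the others. Os-C was at 2.74 to 25.45 CPM and at most 3.77 CPM, so its ranges overlapped. The list of 10 markers of the antenna and palps summed to 11.7 to 28.5 CPM in 3d controls and 6.85 to 19.5 CPM in 3d mutants, to 75.9 to 88.7 CPM in 20d controls and 6.87 to 8.02 CPM in 20d mutants of set 1, and to 9.20 to 37.4, 97.6 to 140.2 and 118.1 to 203.3 CPM at 3d, 20d and 50d of set 2. Most of the high sums in 20d and 50d controls was 1 gene, a10, without which no library among the other 15 exceeded 14.0 CPM. The 6 libraries were then at 11.3 to 64.0 CPM. The lowest of these, replicate 2 of the 3d mutants, was thus not set apart by this list. In set 1, 1 of the 10 markers had no count in 20d controls and 1 had none in 20d mutants.

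Of the 51 members, 24 had a mean above 1 CPM in at least 1 group, 22 of them in set 1, 21 in set 2 and 19 in both. Per group the number in set 1 was 15 for controls and 20 for mutants at 3d and 12 for controls and 14 for mutants at 20d, and in set 2 it was 20, 19 and 20 in order of age. The 11 members above this level in all 7 groups were Obp18a, Obp19c, Obp19d, Obp44a, Obp49a, Obp56d, Obp57b, Obp57c, Obp83ef, Obp99b and Obp99c. Obp56a, Obp57a and Obp83g passed it in set 1 only, and Obp59a and Obp84a in set 2 only. The remaining 8 were Obp8a, Obp19a, Obp28a, Obp56h, Obp69a, Obp83a, Obp83b and Obp83cd. When the 6 libraries rich in antennal transcripts were left out, 18 members remained above 1 CPM, and the 6 lost were Obp19a, Obp28a, Obp59a, Obp83a, Obp83b and Obp84a.

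**Figure D1:**
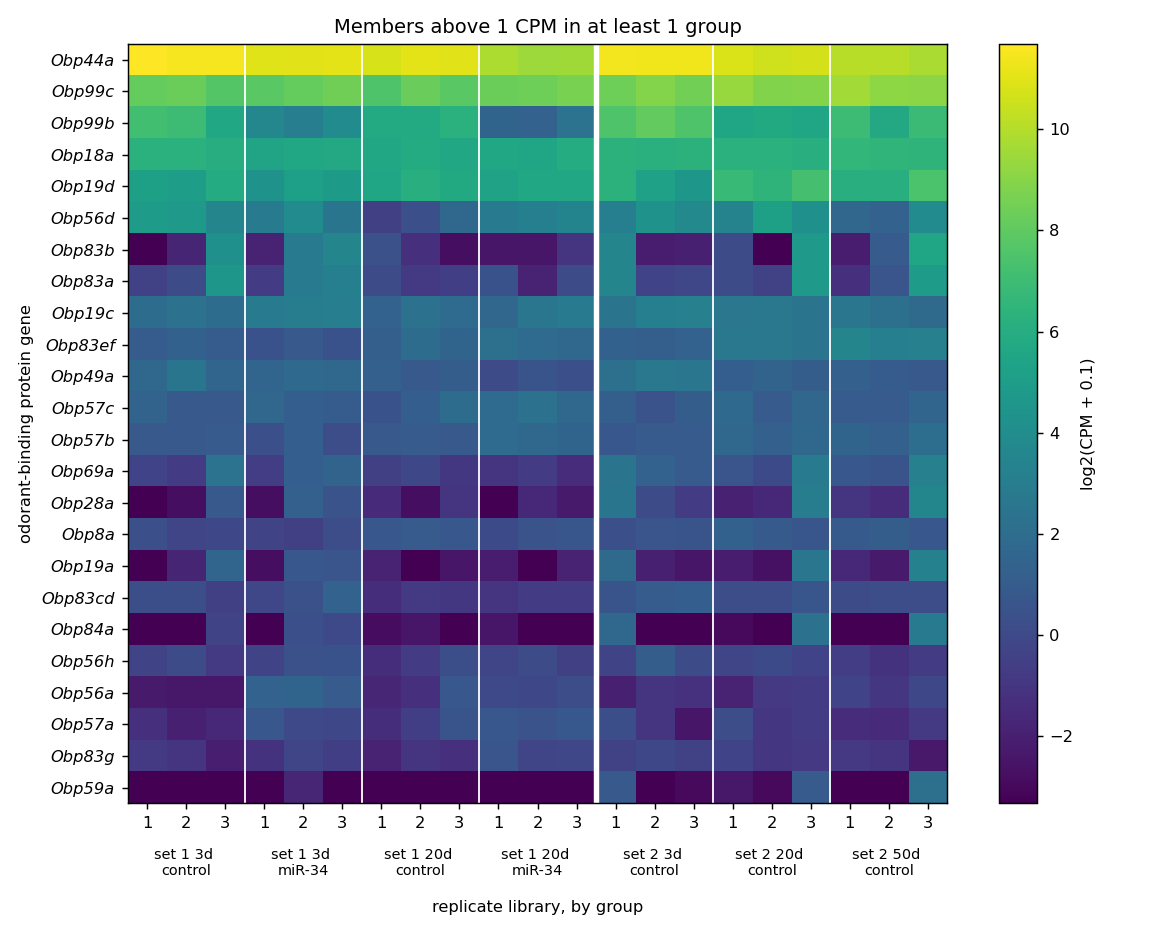
Level of the 24 members above 1 CPM in each of the 21 libraries, as log2 of CPM plus 0.1, with rows in order of mean CPM and columns by group and replicate (white lines part the groups, the thick line the sets). Obp44a and Obp99c lead in every library, Obp99b darkens in the miR-34 mutants, and Obp83a, Obp83b, Obp28a, Obp19a, Obp84a and Obp59a brighten in some libraries of a group and not in others.

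The other 27 members were low or undetected. No count fell on Obp46a, Obp50a, Obp50b, Obp50c, Obp56b and Obp57d in any library. Obp50b and Obp50c share the same exons in the annotation, so reads from either could not have been given to one of them. Exons of Obp57d overlap those of Cpr57A on the same strand, so reads in the shared part could not have been given to Obp57d alone. Another 21 members had counts without reaching 1 CPM: Obp19b, Obp22a, Obp47a, Obp47b, Obp50d, Obp50e, Obp51a, Obp56c, Obp56e, Obp56f, Obp56g, Obp56i, Obp57e, Obp58b, Obp58c, Obp58d, Obp73a, Obp85a, Obp93a, Obp99a and Obp99d. Their totals over the 21 libraries ran from 1 to 283 counts, with at most 10 counts for 10 of them, and their highest group mean was 0.736 CPM, that of Obp99a. They include Obp22a, Obp51a, Obp56e, Obp56f, Obp56g and Obp56i, known as proteins of the male seminal fluid, and Obp57e, known for its part in the choice of egg-laying sites.

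Per length of exon, 1 gene made up most of the family's RNA in young brains. In RPKM (CPM per kb of exon, a level), Obp44a stood at 2798 ± 223 in 3d controls of set 1 (SD, n = 3), against 397 ± 84.7 for Obp99c, 176 ± 81.6 for Obp99b, 97.3 ± 8.87 for Obp18a and 39.9 ± 13.6 for Obp19d. The ratio of Obp44a to Obp99c was 7.27 ± 1.59 over the 3 libraries. Obp44a held 78.1% ± 2.73 of the RPKM summed over the members in these libraries and 76.1% ± 2.86 in mutants of that age, and at 20d it held 75.2% ± 1.44 in controls and 51.5% ± 5.75 in mutants. In set 2 its share went from 68.0% ± 3.61 at 3d over 57.0% ± 1.49 at 20d to 40.1% ± 6.24 at 50d. At 50d Obp44a (946 ± 111 RPKM) and Obp99c (938 ± 205 RPKM) did not differ beyond their spread, whereas in the other 6 groups Obp44a was above Obp99c within every library. The sum over the members was 3585 ± 292 RPKM for controls and 2526 ± 193 for mutants at 3d and 2477 ± 299 for controls and 1426 ± 95.5 for mutants at 20d in set 1, and 3636 ± 133, 2734 ± 249 and 2377 ± 244 at 3d, 20d and 50d of set 2. Among all tested genes ordered by RPKM, Obp44a was number 12 in 3d controls and number 71 in 20d mutants.

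The members lie 29 on chromosome arm 2R, 12 on 3R, 6 on X and 2 each on 2L and 3L. Of the 51, 31 had another member within 10 kb (build BDGP6.54, Ensembl release 115). Exons of 14 members overlap those of another gene. For Obp50b, Obp50c, Obp57d and Obp73a the other gene is on the same strand, so their counts are uncertain under any strand setting. For the others it is on the opposite strand. The strand setting of the counting is not given in the sources used here, so their counts are uncertain too. Among them are Obp44a (Pabp2), Obp99c (Gycalpha99B), Obp59a (CG30259), Obp69a (CG32104), Obp84a (Dtwd2), and Obp83cd and Obp83ef, whose ends overlap each other.

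Group means were compared across all genes with edgeR's quasi-likelihood test, and a gene was called at a Benjamini-Hochberg adjusted p under 0.05 over all genes tested. The filter on low counts kept 24 members in set 1 and 26 in set 2, the 24 and, in addition, Obp56g and Obp59a. Over 8 comparisons 16 members were called at least once, 12 of them in 2 or more, and 10 tested members were called in none. Of these 10, 8 were called by at least 1 alternative in some comparison, all but Obp19a and Obp59a. Log2 fold changes are given ± their standard error. An alternative is another tool, scaling, filter, fit or choice of libraries at the same threshold, and "every alternative" means every one that tested the member.

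The first question was how the family differed between miR-34 mutants and controls at each age. No library came from mutants with miR-34 restored, so the part of other differences between the lines was not tested. At 3d, 3 of 24 tested members were higher in mutants (Obp19c, Obp56a and Obp57a) and 3 were lower (Obp18a, Obp44a and Obp99b), while 16.5% of all 9961 genes tested were called higher and 15.0% lower. At 20d, 3 were higher (Obp56d, Obp57b and Obp83g) and 3 lower (Obp44a, Obp49a and Obp99b), while 16.6% of all genes were called higher and 15.4% lower. The shares of members called were thus not above those of all genes, and the median log2 fold change of the tested members was -0.14 at 3d and 0.14 at 20d, against -0.02 and -0.01 over all genes. Without the 6 libraries rich in antennal transcripts, which leaves the 3d mutants with 1 library whose spread is taken from the other groups, 4 members were called at 3d (Obp19c and Obp44a dropped out) and 5 at 20d (Obp49a dropped out).

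The second question was how the family changed with age. Between 3d and 20d, 3 of 24 tested members were higher at 20d in controls of set 1 (Obp8a, Obp56a and Obp57a) and 4 were lower (Obp18a, Obp44a, Obp49a and Obp56d), beside 11.3% and 13.3% of all genes. In the mutants, 2 were higher at 20d (Obp57b and Obp83ef) and 5 lower (Obp44a, Obp49a, Obp56a, Obp83cd and Obp99b), beside 22.8% and 23.2% of all genes. In set 2, 2 of 26 tested members were higher at 20d than at 3d (Obp57b and Obp83ef) and 3 lower (Obp44a, Obp49a and Obp99b), beside 19.3% and 19.9% of all genes. From 20d to 50d, 2 were higher (Obp18a and Obp83ef) and 2 lower (Obp44a and Obp99a), beside 5.51% and 4.21%. From 3d to 50d, 4 were higher (Obp18a, Obp57b, Obp83ef and Obp99c) and 7 lower (Obp19c, Obp44a, Obp49a, Obp56h, Obp83cd, Obp99a and Obp99b), beside 25.9% and 24.9% of all 10525 genes tested. In all, 29.2%, 29.2%, 19.2%, 15.4% and 42.3% of the tested members were called in these 5 comparisons, below the share of all genes in both directions together in 3 of them and above it in controls of set 1 and from 20d to 50d. The comparisons with 3d and with 20d share their control libraries and are not independent of each other. The count in controls of set 1 was 4 without replicate 1 and 2 without replicate 2 of the 3d group and 3 without replicate 3 of the 20d group. From 20d to 50d it was 2 without replicate 2 at 20d or replicate 1 at 50d, and from 3d to 50d it was 7 without replicate 2 at 3d. Without the 6 libraries rich in antennal transcripts the numbers called were 6 in controls of set 1, and 7, 2 and 8 for 20d against 3d, 50d against 20d and 50d against 3d in set 2. The mutants had 1 library left at 3d in that fit, so no number is given for them.

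**Figure D2:**
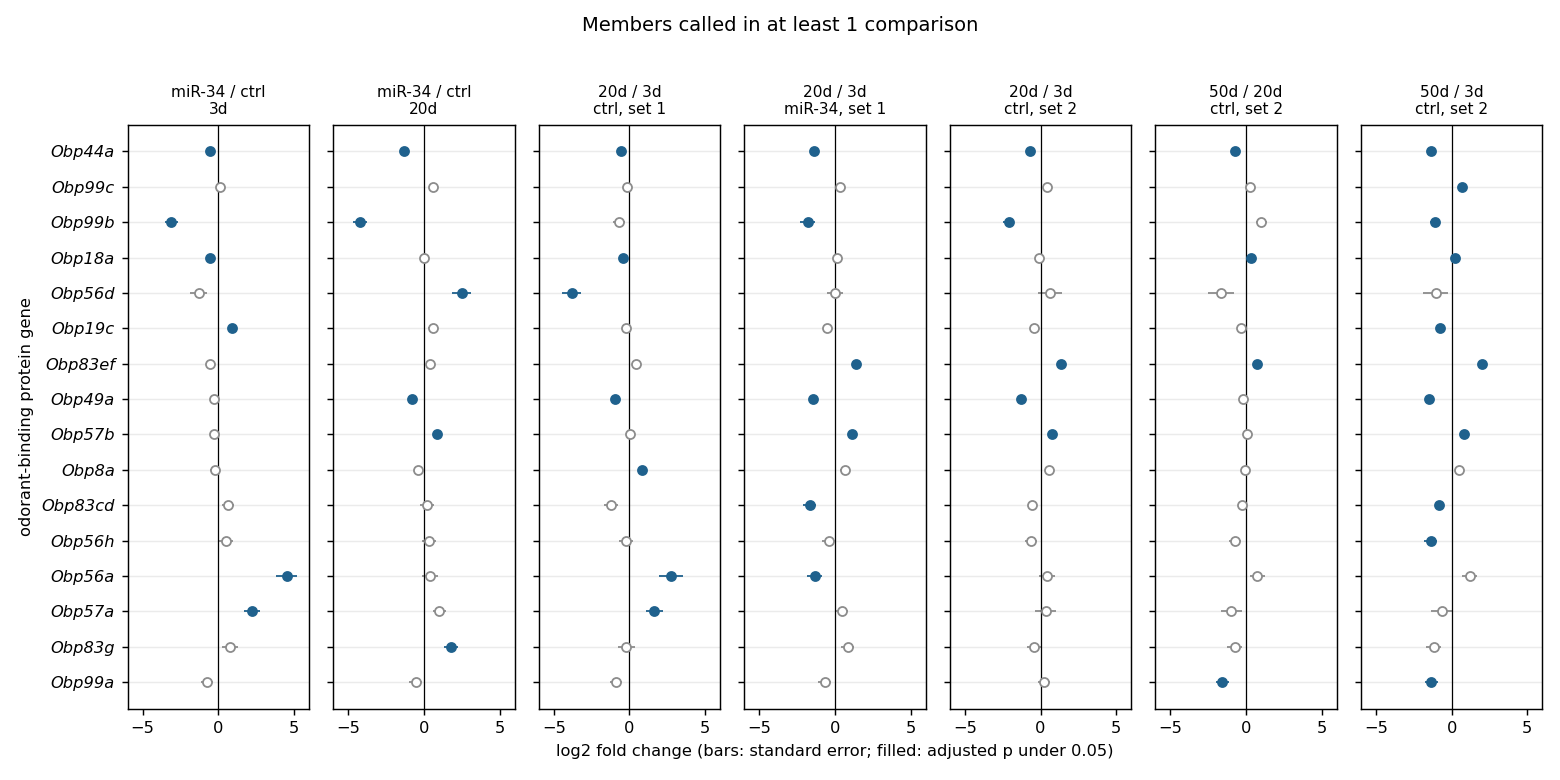
Log2 fold change (x axis) with its standard error for the 16 members called in at least 1 comparison, in the 7 comparisons between 2 groups, with filled points for an adjusted p under 0.05 and open points for the other tested values. Obp44a lies left of 0 in every panel, Obp99b lies farthest left of 0 in both mutant panels, and Obp83ef lies right of 0 in the panels of set 2.

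Obp44a is known in the fly brain as a secreted fatty acid binding protein of glia, and was the member with the highest level and with the most calls. It lies on 2R from 8134170 to 8135315 and is identified as FBgn0033268. In set 1 its level was 3287, 2855 and 2889 CPM in the 3 libraries of 3d controls, 1985, 2063 and 2149 CPM in 3d mutants, 1771, 2171 and 2059 CPM in 20d controls and 925, 708 and 739.5 CPM in 20d mutants. The 20d mutants were below all other libraries of the set, and the 3d mutants lay between the lowest and the highest of the 20d controls. Its level was 1.46-fold lower in mutants at 3d (log2 fold change -0.54 ± 0.10, adjusted p = 0.00127) and 2.53-fold lower at 20d (-1.34 ± 0.10, adjusted p = 6.26e-07), with no overlap between the groups. The difference between these 2 effects was itself called, at -0.80 ± 0.14 on the log2 scale (adjusted p = 0.00231). Without the 6 libraries rich in antennal transcripts, which leaves 1 library of 3d mutants, the fall at 3d was -0.63 and the difference between the ages was -0.71. Neither was called.

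With age Obp44a fell in controls of both sets and in mutants. From 3d to 20d the log2 fold change was -0.59 ± 0.10 in controls of set 1 (adjusted p = 0.00116) and -1.39 ± 0.10 in mutants (adjusted p = 3.20e-07). In set 2 its level was 2748, 2580.0 and 2643 CPM at 3d, 1790.0, 1565 and 1665 CPM at 20d and 1085, 1088 and 880.1 CPM at 50d, so the groups followed each other without overlap. The fall was 1.59-fold from 3d to 20d (-0.67 ± 0.09, adjusted p = 0.00018), 1.64-fold from 20d to 50d (-0.72 ± 0.09, adjusted p = 0.000917) and 2.61-fold from 3d to 50d (-1.38 ± 0.10, adjusted p = 3.04e-07). The fall in mutants at 20d and the 5 falls with age were called under every alternative. In bulk brains, fewer cells that express a gene and less RNA per cell cannot be told apart. Of the 8 glial markers, 5 were higher and 2 lower in mutants at 3d (median log2 fold change 0.28), and 3 were higher and 4 lower at 20d (median -0.14). At 20d alrm, a gene of astrocyte-like glia, had the largest fall of the list, -1.42 on the log2 scale (adjusted p = 1.63e-08). The others called lower there were wrapper (-0.42), Gat (-0.22) and Gs2 (-0.18), and Eaat1 was not called (-0.11, adjusted p = 0.256). Those called higher were moody (0.62), Mdr65 (0.44) and repo (0.30). From 3d to 50d, 2 of the 8 were higher and 5 lower (median -0.41). The part of these cells in the fall of Obp44a was not tested.

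**Figure D3:**
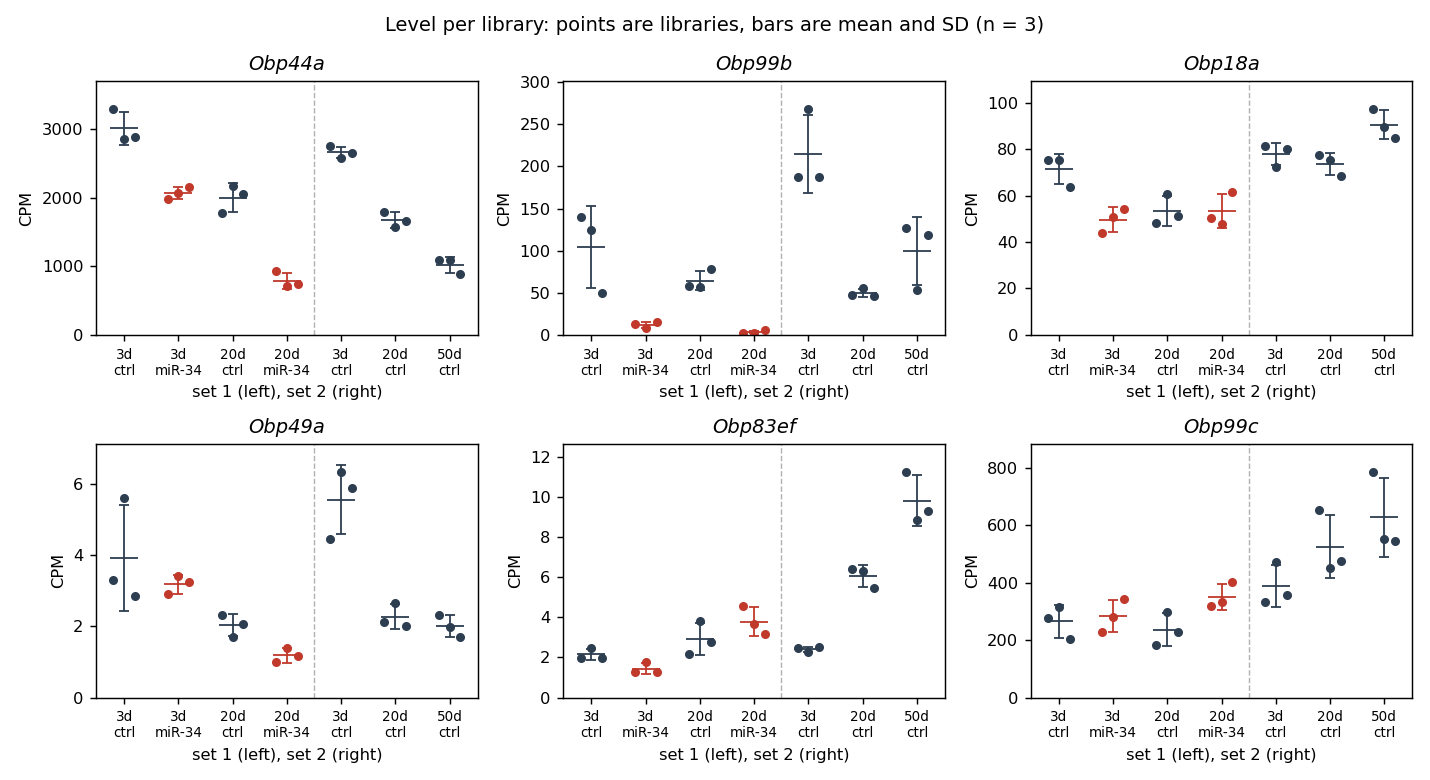
Level in CPM (y axes from 0) of 6 members in each library, by group, with set 1 left and set 2 right of the dashed line, controls dark and miR-34 mutants red, and horizontal bars with whiskers for mean and SD (n = 3). Obp44a steps down with age and in the mutants, Obp99b is close to 0 in both mutant groups, and Obp83ef steps up from 3d to 50d.

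Obp99b, also known as turn on sex-specificity and described in the fat body of male flies, had the largest fall in mutants among the tested members at both ages. It lies on 3R from 29716254 to 29716896 (FBgn0039685), next to Obp99d. Its level was 139.9, 125 and 49.4 CPM in 3d controls and 12.4, 8.58 and 15.2 CPM in 3d mutants, and 58.1, 57.4 and 77.8 CPM in 20d controls and 2.76, 2.52 and 5.26 CPM in 20d mutants. Every mutant library was below every control library of its age. The level was 8.70-fold lower at 3d (-3.12 ± 0.44, adjusted p = 0.000961) and 18.7-fold lower at 20d (-4.22 ± 0.49, adjusted p = 0.000263), and both were called under every alternative. The difference between the ages was not called (-1.10 ± 0.63, adjusted p = 0.267). Of 10 tested markers of fat body (11 in the list), 4 were lower in mutants at 3d with a median log2 fold change of -2.13, and 3 were lower at 20d with a median of -0.83. Lsp1beta, a storage protein of fat body, was at 79.4 to 213 CPM in 3d controls and 5.38 to 8.81 CPM in 3d mutants, and at 59.6 to 77.2 CPM and 1.90 to 2.54 CPM at 20d, while Lsp1alpha had no count in the 3d mutants. Another storage protein, Lsp2, stood at -0.45 in mutants at 3d (adjusted p = 0.48) and 0.01 at 20d (adjusted p = 0.989). Neither Lsp2 nor Lsp1gamma was called for the genotype at either age. The summed level of the list moved less, from 2427 to 3487 CPM in 3d controls and 1951 to 2666 CPM in 3d mutants, and from 2085 to 3153 CPM in 20d controls and 2241 to 2469 CPM in 20d mutants, most of it from apolpp. Their part in the fall of Obp99b was not tested.

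Obp99b was lower at both later ages than at 3d in set 2. There its level was 188, 268 and 187 CPM at 3d, 47.0, 55.4 and 46.3 CPM at 20d and 127, 53.1 and 118 CPM at 50d. The 3d libraries were above all others, and the 20d and 50d libraries overlapped. It was 4.32-fold lower at 20d than at 3d (-2.11 ± 0.35, adjusted p = 0.00394) and 2.15-fold lower at 50d than at 3d (-1.11 ± 0.34, adjusted p = 0.0335), and from 20d to 50d it stood at 1.00 ± 0.34 without a call (adjusted p = 0.141). DESeq2 made this call (0.99, adjusted p = 0.035), and edgeR did without replicate 2 at 50d (1.31, adjusted p = 0.00361). The fall to 50d was no longer called without any of the 3d libraries or without replicate 3 at 50d, without the filter on low counts or with only these groups in the fit. Neither of the falls was called without the 6 libraries rich in antennal transcripts. In set 1 it was lower at 20d than at 3d in mutants (-1.80 ± 0.49, adjusted p = 0.0163), a call lost without replicate 3 of the 3d mutants or replicate 1 or 2 of the 20d mutants. In controls it was not called (-0.70 ± 0.40, adjusted p = 0.244), where replicate 3 at 3d, rich in antennal transcripts, was the lowest of its group. Without that library it was called (-1.04, adjusted p = 0.0417).

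Obp99c and Obp99a lie on the same arm as Obp99b, from 29685736 to 29689311 and from 29671657 to 29672334. Obp99c had 278, 315 and 204 CPM in 3d controls, 229, 279.9 and 342 CPM in 3d mutants, 184, 299 and 227 CPM in 20d controls and 318, 333 and 403 CPM in 20d mutants. Both mutant effects missed the threshold, at 0.09 ± 0.23 at 3d (adjusted p = 0.786) and 0.57 ± 0.23 at 20d (adjusted p = 0.0904), where the 20d mutants were above the controls in every library and the call was made without replicate 2 of the controls (0.77, adjusted p = 0.037). In set 2 its level was 334, 473 and 358 CPM at 3d, 652, 451 and 474 CPM at 20d and 786, 552 and 545 CPM at 50d. It was 1.61-fold higher at 50d than at 3d (0.69 ± 0.21, adjusted p = 0.0253), a call lost without replicate 1 or 3 at 3d or replicate 1 at 50d, without the filter on low counts and without the 6 libraries rich in antennal transcripts. Obp99a, which stayed under 1 CPM on average in every group, had 0.593, 0.644 and 0.948 CPM in 3d controls, 0.551, 0.310 and 0.419 CPM in 3d mutants, 0.455, 0.224 and 0.493 CPM in 20d controls and 0.216, 0.261 and 0.332 CPM in 20d mutants, with no call in set 1. In set 2 it had 0.705, 0.597 and 0.576 CPM at 3d, 1.09, 0.673 and 0.447 CPM at 20d and 0.251, 0.220 and 0.258 CPM at 50d, and the 50d libraries were below all others. It was lower at 50d than at 20d (-1.57 ± 0.42, adjusted p = 0.0351) and than at 3d (-1.36 ± 0.42, adjusted p = 0.0177). The first of these calls was lost without any 1 of the 50d libraries or replicate 1 or 2 at 20d, without the filter on low counts and with the other groups of the set kept out of the fit. The second was lost without replicate 1 at 3d or replicate 2 at 50d, and both were lost without the 6 libraries.

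Obp18a (FBgn0030985), on X from 19135081 to 19135868, varied little between replicates. Its level was 75.1, 75.2 and 63.9 CPM in 3d controls, 43.8, 50.9 and 54.2 CPM in 3d mutants, 48.2, 60.8 and 51.3 CPM in 20d controls and 50.1, 47.9 and 61.5 CPM in 20d mutants. The 3d controls were above all other libraries of the set, and the other 3 groups overlapped. It was 1.44-fold lower in mutants at 3d (-0.53 ± 0.12, adjusted p = 0.00479), a call kept under every alternative, and 1.34-fold lower at 20d than at 3d in controls (-0.42 ± 0.12, adjusted p = 0.0219), a call lost without replicate 1 or 2 at 3d or replicate 1 or 3 at 20d. At 20d the mutants did not differ by a call (-0.01 ± 0.12, adjusted p = 0.967). In set 2 its level was 81.2, 72.4 and 80.0 CPM at 3d, 77.4, 75.2 and 68.3 CPM at 20d and 97.2, 89.4 and 84.8 CPM at 50d, highest in the 50d brains. It rose 1.23-fold from 20d to 50d (0.30 ± 0.07, adjusted p = 0.0217) and 1.16-fold from 3d to 50d (0.22 ± 0.07, adjusted p = 0.0233), small steps that leaving out replicate 2 at 3d or replicate 1 at 50d (50d against 3d), or replicate 2 or 3 at 20d or 1 or 2 at 50d (50d against 20d), took out of the calls. The step from 20d to 50d was also lost without the 6 libraries.

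Obp49a, known from taste sensilla, where it carries bitter compounds that weaken the response to sugar, was lower at the later ages. It lies on 2R from 12690059 to 12690955. Its level was 3.29, 5.60 and 2.85 CPM in 3d controls, 2.90, 3.41 and 3.24 CPM in 3d mutants, 2.31, 1.70 and 2.06 CPM in 20d controls and 0.993, 1.39 and 1.16 CPM in 20d mutants. Every 20d library was below every 3d library of its genotype, and the fall was 1.93-fold in controls (-0.95 ± 0.25, adjusted p = 0.0151) and 2.68-fold in mutants (-1.42 ± 0.27, adjusted p = 0.000711). Without replicate 2 of the 3d controls, the highest of them, the fall in controls was -0.60 and was not called (adjusted p = 0.0844). In set 2 it had 4.46, 6.33 and 5.88 CPM at 3d, 2.12, 2.66 and 2.01 CPM at 20d and 2.32, 1.98 and 1.70 CPM at 50d. It fell 2.46-fold by 20d (-1.30 ± 0.20, adjusted p = 0.000296) and 2.78-fold by 50d (-1.47 ± 0.20, adjusted p = 5.97e-05), both called under every alternative. In mutants it was also lower at 20d (-0.78 ± 0.27, adjusted p = 0.0423), but leaving out replicate 1 or 3 of the controls or any 1 of the mutants ended this call, and DESeq2 did not make it.

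The members Obp83cd, Obp83ef and Obp83g lie within 10 kb on 3R, between 6108134 and 6112302. Obp83ef rose with age in the controls of set 2. It had 2.47, 2.27 and 2.51 CPM at 3d, 6.41, 6.33 and 5.45 CPM at 20d and 11.2, 8.85 and 9.32 CPM at 50d in set 2, with no overlap between ages. The rise was 2.50-fold to 20d (1.32 ± 0.14, adjusted p = 1.91e-05), 1.62-fold from 20d to 50d (0.69 ± 0.13, adjusted p = 0.00668) and 4.05-fold in all (2.02 ± 0.14, adjusted p = 2.84e-07). In set 1 it had 2.00, 2.48 and 1.99 CPM in 3d controls, 1.29, 1.76 and 1.26 CPM in 3d mutants, 2.19, 3.81 and 2.78 CPM in 20d controls and 4.58, 3.65 and 3.15 CPM in 20d mutants. It rose 2.64-fold with age in mutants (1.40 ± 0.25, adjusted p = 0.000427), whereas in controls the value was 0.44 ± 0.24 with an adjusted p of 0.205, and the difference between the genotypes was not called (adjusted p = 0.067). It was called without replicate 2 of the 20d controls (1.20, adjusted p = 0.0223). All 4 rises of Obp83ef were called under every alternative.

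Obp83cd, whose exons end inside Obp83ef on the opposite strand, moved the other way. In set 1 it had 1.13, 1.14 and 0.616 CPM in 3d controls, 0.827, 1.24 and 2.52 CPM in 3d mutants, 0.289, 0.492 and 0.449 CPM in 20d controls and 0.389, 0.522 and 0.498 CPM in 20d mutants. It was 3.19-fold lower at 20d than at 3d in mutants (-1.67 ± 0.43, adjusted p = 0.00573). Without the 6 libraries, replicates 2 and 3 of the 3d mutants among them, this was -0.82 and was not called, with 1 library left at 3d. In controls it was called at 20d against 3d without replicate 3 at 3d (-1.46, adjusted p = 0.0463). In the controls of set 2 it had 1.41, 1.97 and 2.15 CPM at 3d, 1.09, 1.07 and 1.52 CPM at 20d and 0.972, 1.07 and 1.08 CPM at 50d, and was 1.76-fold lower at 50d than at 3d (-0.82 ± 0.26, adjusted p = 0.0209). That call was lost without replicate 2 or 3 at 3d or replicate 1 or 2 at 50d. Obp83g, on the same strand as Obp83ef, was higher in mutants at 20d, 0.782 to 1.47 CPM against 0.165 to 0.403 CPM in controls (1.80 ± 0.47, adjusted p = 0.00886), and had 0.103 to 0.836 CPM in the other 5 groups.

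Of the members named Obp56, Obp56a and Obp56d lie within 10 kb on 2R, and with all libraries each was called for the genotype at 1 age. Obp56a had 0.108, 0.0991 and 0.0948 CPM in 3d controls, which is 6 counts over the 3 libraries, and 2.48, 2.79 and 1.92 CPM in 3d mutants, or 140 counts. The ratio of these levels was 24.2, with a 95% interval from 10.8 to 66.9 that covers counting error only, and the fitted log2 fold change was 4.50 ± 0.70 (adjusted p = 0.00035), a call kept under every alternative. At 20d it had 0.207, 0.313 and 1.61 CPM in controls and 0.906, 0.869 and 1.05 CPM in mutants, so the groups overlapped, and no call was made (0.41 ± 0.54, adjusted p = 0.606). That rests on replicate 3 of the controls, without which Obp56a was 1.84 higher in mutants on the log2 scale and was called (adjusted p = 0.00276). The same library held most of the counts of the 20d controls, and the rise with age in controls (2.74 ± 0.77, adjusted p = 0.0215, ratio 6.95 from 48 against 6 counts, interval 2.97 to 19.9) was lost without it (1.31, adjusted p = 0.167), without any 1 of the 3d controls and without the 6 libraries rich in antennal transcripts. In mutants Obp56a was lower at 20d (-1.35 ± 0.50, adjusted p = 0.0417), and this call was lost without any 1 of the 6 libraries compared, without the filter on low counts, under DESeq2 and without the 6 libraries rich in antennal transcripts. The difference between the effects of the genotype at the 2 ages was -4.09 ± 0.92 (adjusted p = 0.00866). It came to -2.66 without replicate 3 of the 20d controls (adjusted p = 0.0084), and was not called without the 6 libraries rich in antennal transcripts, which leaves 1 library of 3d mutants. The set 2 libraries had 0.151, 0.388 and 0.333 CPM at 3d, 0.187, 0.459 and 0.514 CPM at 20d and 0.721, 0.412 and 0.852 CPM at 50d, with no call.

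Obp56d (2R, 19702924 to 19703915) was called for the genotype at 20d and for age in the controls of set 1. In set 1 it had 29.6, 27.2 and 11.2 CPM in 3d controls, 7.03, 14.7 and 5.51 CPM in 3d mutants, 0.620, 1.16 and 3.10 CPM in 20d controls and 7.60, 8.87 and 10.8 CPM in 20d mutants. The 20d controls were below every other library of the set. Obp56d was thus 14.0-fold lower at 20d than at 3d in controls (-3.81 ± 0.64, adjusted p = 0.00338), where the value in mutants was near 0 (-0.01 ± 0.55, adjusted p = 0.99), and the difference between the genotypes in this change was called under every alternative (3.80 ± 0.84, adjusted p = 0.0159). At 20d it was 5.61-fold higher in mutants (2.49 ± 0.64, adjusted p = 0.0179), a call lost without replicate 1 or 2 of the controls or replicate 3 of the mutants. Without replicate 3 of the 20d controls, the highest of them, the fall with age in controls was 25.4-fold (-4.67), the mutant effect at 20d 10.2-fold (3.35) and the difference between the genotypes 4.66, all called. At 3d the mutants were called lower only without replicate 3 of the controls (-1.64, adjusted p = 0.0475). In set 2 the 20d controls had 10.5, 36.6 and 18.2 CPM, above those of set 1, beside 8.86, 20.6 and 13.4 CPM at 3d and 3.01, 2.56 and 14.8 CPM at 50d, and 20d against 3d was not called there (0.61 ± 0.80, adjusted p = 0.591). The comparison of 50d with 3d was called only without replicate 3 at 50d (-2.36, adjusted p = 0.0447). Levels are set across the sets here without a test, since the sets were sequenced and scaled separately. Obp56h, known in flies to affect how soon males mate, was at 0.730 to 2.09 CPM at 3d and 0.357 to 0.564 CPM at 50d of set 2 (-1.39 ± 0.41, adjusted p = 0.014), a fall lost from the calls without replicate 2 of either age, and at 0.289 to 1.26 CPM in set 1 without a call.

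Obp57a, Obp57b and Obp57c stand in a row on the plus strand of 2R, from 20503584 to 20505758. Obp57a had 0.324, 0.149 and 0.237 CPM in 3d controls, 1.61, 0.879 and 0.839 CPM in 3d mutants, 0.289, 0.582 and 1.39 CPM in 20d controls and 1.55, 1.35 and 1.66 CPM in 20d mutants. It was 4.68-fold higher in 3d mutants (2.23 ± 0.55, adjusted p = 0.00697), a call kept under every alternative, and the groups did not overlap. At 20d it was not called, except without replicate 3 of the controls (1.80, adjusted p = 0.00876). The rise with age in controls (1.65 ± 0.56, adjusted p = 0.0464) came with overlapping groups and was lost without any 1 of the 3d controls, without replicate 3 of the 20d controls (0.86, adjusted p = 0.274) and without the 6 libraries rich in antennal transcripts. Set 2 showed 1.11, 0.388 and 0.0909 CPM at 3d, 1.09, 0.428 and 0.536 CPM at 20d and 0.282, 0.247 and 0.490 CPM at 50d, with no call. Obp57b had 1.73, 1.74 and 1.85 CPM in 3d controls, 1.15, 2.17 and 1.08 CPM in 3d mutants, 1.74, 1.88 and 1.70 CPM in 20d controls and 3.63, 3.26 and 2.71 CPM in 20d mutants. The 20d mutants were above all other libraries of the set. Obp57b was 2.18-fold higher at 20d than at 3d in mutants (1.12 ± 0.25, adjusted p = 0.00243), called under every alternative, and 1.81-fold higher in mutants than in controls at 20d (0.85 ± 0.24, adjusted p = 0.0157), a call lost without replicate 3 of the controls or replicate 1 of the mutants. The difference between genotypes in the change with age was 1.12 ± 0.36 (adjusted p = 0.043), and was lost without any 1 of 10 of the 12 libraries, without the filter on low counts and without the 6 libraries rich in antennal transcripts. In set 2 it had 1.59, 1.85 and 1.88 CPM at 3d, 3.30, 2.29 and 3.22 CPM at 20d and 2.76, 2.36 and 4.13 CPM at 50d, and was higher than at 3d at both later ages (0.73 ± 0.24, adjusted p = 0.0291, and 0.80 ± 0.24, adjusted p = 0.014), although neither call held without the 6 libraries. The first was lost without any of 5 of its 6 libraries, all but replicate 2 at 20d, and the second without replicate 3 at 50d. Obp57c had 1.28 to 4.65 CPM over the 21 libraries and no call in edgeR's fit of the whole set. Mutants at 20d were called higher without replicate 3 of the controls (1.19, adjusted p = 0.0126).

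The cluster of Obp19a, Obp19b, Obp19c and Obp19d spans 20415744 to 20420979 on X. Obp19c had 3.88, 4.76 and 3.89 CPM in 3d controls, 7.49, 7.65 and 8.33 CPM in 3d mutants, 2.52, 4.70 and 3.68 CPM in 20d controls and 2.98, 5.91 and 7.36 CPM in 20d mutants. It was 1.87-fold higher in 3d mutants (0.90 ± 0.28, adjusted p = 0.029) with no overlap, and the call was lost without any 1 of 5 of the 6 libraries, all but replicate 2 of the controls. At 20d it was called higher in mutants without replicate 1 of the mutants (0.87, adjusted p = 0.00725). In set 2 it had 5.46, 8.81 and 9.15 CPM at 3d, 6.16, 6.27 and 5.29 CPM at 20d and 5.80, 4.48 and 3.54 CPM at 50d, and was 1.70-fold lower at 50d than at 3d (-0.76 ± 0.21, adjusted p = 0.0114), called under every alternative although the groups overlapped. Obp19d had 37.2, 33.5 and 61.0 CPM in 3d controls, 20.3, 34.6 and 29.2 CPM in 3d mutants, 45.1, 69.4 and 55.1 CPM in 20d controls and 40.3, 48.0 and 48.4 CPM in 20d mutants. The libraries of set 2 had 80.7, 38.1 and 24.2 CPM at 3d, 109.7, 87.2 and 150.0 CPM at 20d and 67.3, 67.0 and 173 CPM at 50d. It was called in no comparison by edgeR with all libraries of the set in the fit. DESeq2 called it higher at 20d in mutants (0.69, adjusted p = 0.0415), as did edgeR with only the groups compared (0.71, adjusted p = 0.0318). In each control group that held 1 library rich in antennal transcripts that library was the highest. With those 6 libraries left out Obp19d was higher at 20d than at 3d, by 0.68 in controls of set 1 and 1.66 in set 2 on the log2 scale (adjusted p = 0.0384 and 0.0144), and by 1.11 at 50d against 3d (adjusted p = 0.0322). In mutants of set 1 the value was 1.16, with 1 library left at 3d. Obp8a, known as a protein of the male seminal fluid, had 0.621 to 2.46 CPM over the 21 libraries and was higher at 20d than at 3d in controls of set 1 (0.83 ± 0.28, adjusted p = 0.0468), a call lost without 5 of the 6 libraries compared (all but replicate 1 at 3d), without the filter on low counts, with only the groups compared in the fit, under DESeq2 and without the 6 libraries (adjusted p = 0.161).

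The remaining members above 1 CPM include those best known from the antenna, where support cells of olfactory sensilla make Obp19a, Obp28a, Obp69a, Obp83a, Obp83b and Obp84a, and where Obp59a is known for the sensing of humidity. Obp83b was at 0, 0.198 and 18.5 CPM in 3d controls, 0.184, 7.14 and 11.2 CPM in 3d mutants, 1.20, 0.313 and 0.0449 CPM in 20d controls and 0.0863, 0.0869 and 0.387 CPM in 20d mutants, and in set 2 at 11.2, 0.119 and 0.151 CPM at 3d, 0.964, 0 and 27.9 CPM at 20d and 0.125, 1.87 and 47.9 CPM at 50d. Each group with a value above 2 CPM held it in the libraries rich in antennal transcripts and nowhere else. Obp83a ran the same way, with 0.174 to 1.25 CPM in the 20d groups of set 1, which held no such library, and a highest value of 30.2 CPM in replicate 3 at 50d. Of the 24 members above 1 CPM, 7 were highest in the 1 library that stood apart in all 4 control groups that had one (Obp19a, Obp19d, Obp28a, Obp69a, Obp83a, Obp83b and Obp84a), and 5 of these were more than 3 times the next library in each of the 4 (all but Obp19d and Obp69a). Obp59a was highest in that library in 3 of the 4 groups and had no count in 3d controls of set 1. Obp19a, Obp28a, Obp59a, Obp69a, Obp83a, Obp83b and Obp84a were called in no comparison by edgeR with all libraries of the set in the fit. DESeq2 called Obp83a lower at 20d in controls of set 1 (-3.64, adjusted p = 0.0319), and Obp83b (-5.07, adjusted p = 0.0285) and Obp69a (-2.17, adjusted p = 0.0171) lower at 20d in mutants. Without replicate 1 of the 3d mutants, edgeR called Obp84a (-4.83, adjusted p = 0.0205) and Obp69a (-2.56, adjusted p = 0.0475) lower there too, and without the 6 libraries it called Obp28a lower at 20d than at 3d in set 2 (-2.03, adjusted p = 0.0281). The part of antennal tissue in these values was not tested.

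**Figure D4:**
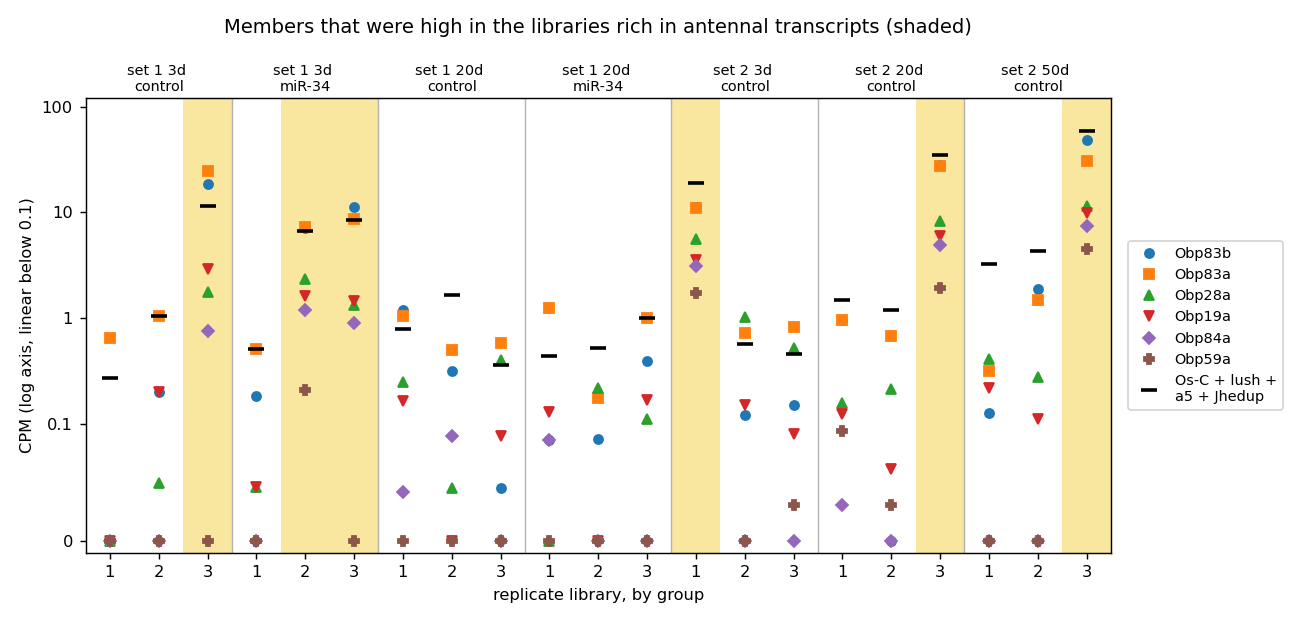
Level in CPM (log axis, linear below 0.1) of 6 members in each of the 21 libraries, with black bars for the summed level of Os-C, lush, a5 and Jhedup and shading for the 6 libraries in which a5 and Jhedup together exceeded 0.5 CPM. In the shaded libraries the black bars lie between 6.67 and 58.3 CPM and Obp83a between 7.19 and 30.2 CPM, and in the other libraries Obp83a is at most 1.48 CPM.

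The age by genotype interaction asked whether the effect of the genotype differed between 3d and 20d. It was called for 5 of 24 tested members, 3 with a more positive effect at 20d (Obp18a, Obp56d and Obp57b) and 2 with a more negative one (Obp44a and Obp56a), beside 8.29% and 10.3% of all genes. Obp18a, lower in mutants at 3d and without a call at 20d, had a difference of 0.52 ± 0.17 (adjusted p = 0.0476) that was lost without any 1 of 8 of the 12 libraries, with RLE size factors in place of TMM and without the filter on low counts. Without the 6 libraries rich in antennal transcripts, which leaves 1 library of 3d mutants, the calls of Obp44a, Obp56a and Obp57b were lost. The number called was 3 without replicate 1 or 2 of the 3d controls, replicate 1 of the 3d mutants, replicate 1 or 3 of the 20d controls or replicate 1 of the 20d mutants.

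The other chemosensory genes were mostly below the level at which they could be tested. Of 207 receptor and CheA or CheB genes in the table, 26 were tested in set 1 and 36 in set 2. The shares of all genes called higher and lower are given in brackets. In mutants 4 were higher and 3 lower at 3d (16.5% and 15.0%), and 3 higher and 3 lower at 20d (16.6% and 15.4%). From 3d to 20d, 3 were higher and 2 lower in controls of set 1 (11.3% and 13.3%). In its mutants 3 were higher and 5 lower (22.8% and 23.2%), and in set 2 5 were higher and 5 lower (19.3% and 19.9%). From 3d to 50d 6 were higher and 4 lower (25.9% and 24.9%). From 20d to 50d edgeR and DESeq2 called 0 (5.51% and 4.21% in edgeR), with 3 at an unadjusted p under 0.05 in edgeR. The interaction was called for 1 in the positive and 2 in the negative direction (8.29% and 10.3%). Of the 10 further carrier and perireceptor genes, such as lush and Os-C, 8 were tested in set 1 and 10 in set 2. In mutants 1 was lower at each age (15.0% of all genes at 3d and 15.4% at 20d). From 3d to 50d 4 were higher and 2 lower (25.9% and 24.9% of all genes), with a median log2 fold change of 1.16, against 0.02 over all genes. Without replicate 3 at 50d, rich in antennal transcripts, the same numbers were called and the median was -0.05. Without the 6 libraries 4 were higher and 1 lower of 8 tested, with a median of 0.74.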

How the data were processed

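RNA from male brains was sequenced in 21 libraries, 3 for each of 7 groups. The authors aligned the reads with HISAT2 and counted them per gene with HTSeq against FlyBase annotation, and they deposited whole-number counts per gene without normalization. Their own tests used DESeq2. No column of the table was left unused (0 unmatched).

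From the counts, edgeR 4.0.16 (R 4.3.3) gave TMM-scaled CPM. RPKM divided CPM by the union exon length in kb from Ensembl release 115 (BDGP6.54). edgeR's robust quasi-likelihood test was fitted once per set on the genes kept by filterByExpr (minimum count 10), 9961 in set 1 and 10525 in set 2, and p-values were adjusted over all of them (Benjamini-Hochberg, threshold 0.05). The biological coefficient of variation was 13.0% in set 1 and 12.9% in set 2. The scripts were tested on simulated data. Standard errors are the size of the log2 fold change over the square root of F. Ratios with 1 to 3 counts in a library have exact 95% intervals that cover counting error only.

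Members named with values were those above 1 CPM or called. Values in every library are given for those called in 2 or more comparisons and for the 5 highest by RPKM. The members, gene lists and tests were chosen with earlier results of these data known. In no pair of replicates did the counts agree within sampling noise (chi-square per degree of freedom 5.70 to 55.1). Replicates are labelled as separate pools of brains. Alternatives were DESeq2 1.42.0, RLE size factors, other filters on low counts, only the groups compared, the replicate block, each library left out, and, added after seeing the data, the 6 libraries rich in antennal transcripts left out. A threshold of 0.01 was tried as well and is not counted among the alternatives. Protein sequences were not analysed here.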

Additional observations from a re-analysis of the deposited data

Results flagged for a closer look

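For 5 members the effect of the genotype differed between 3d and 20d by edgeR's test of the interaction. The effect at 20d minus that at 3d on the log2 scale is given here. The difference was -0.80 for Obp44a, the member with the highest level, whose mutant effect was -0.54 at 3d and -1.34 at 20d. It was 3.80 for Obp56d, whose effect was -1.31 at 3d and 2.49 at 20d and whose 20d controls were the lowest libraries of set 1, and it was 4.66 without replicate 3 of those controls. It was -4.09 for Obp56a, which rests on 6 counts in the 3d controls and, at 20d, on 1 control library, replicate 3, with most of its group's counts, and without which the difference was -2.66. It was 0.52 for Obp18a and 1.12 for Obp57b, with adjusted p-values of 0.0476 and 0.043 near the threshold. Groups of 3 libraries are too small for a test of single outlying libraries.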

How the results depend on the processing

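Of 51 called results of single members, 23 stayed past the threshold in every alternative that gave a value, 23 were lost when 1 library was left out and 20 under another alternative; none of the 676 values changed direction, and the causes were not tested. Alternatives also called 28 results of members that were not called otherwise, 11 of them only when 1 library was left out. Without the 6 libraries rich in antennal transcripts, 19 were lost. Among the comparisons that did not use the 3d mutants, the number of members called rose for 20d against 3d in set 2 and fell in the others. For 50d against 20d it fell to 2 (4 with all libraries). It also fell in the comparisons with the 3d mutants, the interaction among them, where 1 library of that group was left. At an adjusted p under 0.01, 3 members were called for mutants at 20d, 2 for age in controls of set 1, 2 for the interaction, 2 for 50d against 20d and 3 for 50d against 3d. With only the groups compared in the fit, 4 were called for age in controls of set 1, and with no filter on low counts 3 for the interaction. With 1 library left out, the number ran from 2 to 6 for age in controls of set 1, 3 to 5 for the interaction, 2 to 3 for 50d against 20d and 7 to 10 for 50d against 3d. The number of members above 1 CPM ran from 23 to 24 with 1 library left out, and was 16 where every library of a group had to pass. The filter of at least 10 counts in every library left several of the low members untested. Depth limits the members under 1 CPM, where 1 library can hold most of a group's counts.

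In no comparison were the deviations of every pair of same-numbered libraries correlated above 0.1 (range -0.16 to 0.33). With 3 pairs in a comparison this cannot settle whether replicates of the same number share a block. The mean correlation was highest for 50d against 20d, at 0.22. There the block moved the genes called higher from 580 to 698 and those called lower from 443 to 584, over all genes. With the replicate block, 6 members were called in mutants at 3d and 6 at 20d, 5 and 9 with age in controls and mutants of set 1, 5 for the interaction, and 6, 4 and 10 in set 2 for 20d against 3d, 50d against 20d and 50d against 3d. The block took 5 results out of the calls (Obp18a for the interaction, Obp8a and Obp57a with age in controls of set 1, Obp99b and Obp99c for 50d against 3d) and brought in 5 (Obp19c and Obp19d with age in mutants, Obp83ef for the interaction, Obp56g for 20d against 3d and Obp83g for 50d against 3d in set 2).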
